A study of Mus musculus with 14 samples.

Results

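The secretory pathway genes described here are 50 genes that carry new proteins into the endoplasmic reticulum, fold them there, remove those that misfold and ship the rest to the Golgi. They were found by gene symbol, or its current synonym, among the 45281 probes of an Illumina mouse array. Of the 50, 48 had a probe named for them, 43 passed the filter on dim probes, and all 11349 genes that passed it formed the background. They fall into 5 classes by role: stress signalling (2 of 3 tested), folding (12 of 16), degradation (6 of 7), translocation into the endoplasmic reticulum (9 of 9), and vesicle coats with their cargo receptors (14 of 15).

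RNA came from mammary gland cells of female FVB/NJ mice, sorted by flow cytometry at a stated purity above 90%. Cells lacking CD45, CD31 and TER119 were split into a MaSC-enriched population, CD29hi CD24+, which holds basal and myoepithelial cells together with mammary stem cells, and a luminal population, CD29lo CD24+. The 4 groups were pregnant MaSC-enriched (day 12.5 of pregnancy, 4 arrays), virgin MaSC-enriched (3 arrays), pregnant luminal (day 12.5, 4 arrays) and virgin luminal (3 arrays). Each replicate was a pool of mice, with 4 pools of pregnant and 3 of virgin animals, no genotype other than the strain and no treatment named in the labels, and no age for the virgin mice. P-values therefore measure the spread between pools.

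Secreted and membrane proteins enter the endoplasmic reticulum through the Sec61 channel, are folded by chaperones and disulphide isomerases, and leave in vesicles coated with COPII, while COPI coats bring escaped residents back. When unfolded proteins build up, the sensors Ern1 (IRE1) and Atf6 signal to the nucleus, Ern1 by splicing the mRNA of the transcription factor Xbp1. In the mammary gland, alveolar luminal cells expand during pregnancy and go on to secrete milk protein in bulk, and Xbp1 is known to be needed there for a developed secretory apparatus.

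Many chaperone promoters carry a known stress-response sequence, and promoter stretches are shown because the folding, translocation and coat genes described here differ in whether they hold it. Promoter windows from RefSeq (GRCm38.p6, 250 bases before to 50 after each start) were matched by symbol for 41 of the 50 genes and searched on both strands for 3 motifs. The endoplasmic reticulum stress element, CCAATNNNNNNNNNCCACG, was present in 7 of 13 folding promoters, in 1 of 6 degradation promoters (Syvn1), and in none of 7 translocation, 13 vesicle coat or 2 signalling promoters, against 37 of 27025 genes in all (0.137%). A second form, ATTGGNCCACG, was present in Herpud1 and Dnajb11, and in 12 genes in all (0.0444%). The core of the element bound by Xbp1, TGACGTGG, was present in 4 of 13 vesicle coat promoters (Sec24d, Sec23a, Copb1 and Copb2), and in 193 genes in all (0.714%). No match of one motif overlapped that of another. A match is a description of these letters and not of a bound site. Stretches before the start are given with the matched letters in capitals, read along the strand of the gene, and positions count from the start. A match on the other strand reads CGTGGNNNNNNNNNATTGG for the stress element, as in Calr and Creld2, and Hsp90b1 holds 1 match on each strand.
Hspa5, chr2:34772010-34772058, plus strand, bases -80 to -32: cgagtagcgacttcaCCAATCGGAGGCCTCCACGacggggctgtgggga
Hsp90b1, chr10:86705518-86705671, minus strand, bases -227 to -74: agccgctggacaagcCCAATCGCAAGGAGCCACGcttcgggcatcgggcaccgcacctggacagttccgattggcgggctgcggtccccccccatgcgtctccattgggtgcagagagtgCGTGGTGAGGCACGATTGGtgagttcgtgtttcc
Calr, chr8:84847060-84847108, minus strand, bases -177 to -129: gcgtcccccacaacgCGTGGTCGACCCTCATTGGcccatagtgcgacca
Canx, chr11:50325785-50325833, minus strand, bases -160 to -112: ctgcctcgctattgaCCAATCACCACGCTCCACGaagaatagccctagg
Pdia6, chr12:17266476-17266524, plus strand, bases -113 to -65: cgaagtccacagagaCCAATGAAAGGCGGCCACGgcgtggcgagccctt
Dnajc3, chr14:118937812-118937860, plus strand, bases -120 to -72: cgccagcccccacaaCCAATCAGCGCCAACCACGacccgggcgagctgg
Creld2, chr15:88819505-88819553, plus strand, bases -141 to -93: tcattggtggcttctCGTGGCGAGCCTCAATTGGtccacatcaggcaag
Syvn1, chr19:6046517-6046565, plus strand, bases -59 to -11: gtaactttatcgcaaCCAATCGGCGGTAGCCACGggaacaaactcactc
Herpud1, chr8:94386362-94386402, plus strand, bases -67 to -27: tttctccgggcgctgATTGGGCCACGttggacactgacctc
Sec24d, chr3:123267455-123267492, plus strand, bases -41 to -4: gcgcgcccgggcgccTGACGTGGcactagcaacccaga
Copb1, chr7:114254686-114254723, minus strand, bases -43 to -6: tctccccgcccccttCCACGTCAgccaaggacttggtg

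Values are log2 intensities after background correction and quantile normalization, in arbitrary units that compare arrays for a given probe and not one gene with another. The share of all probes detected ran from 34.8% to 42.3% over the 14 arrays, and raw median intensity from 105 to 165. Virgin MaSC-enriched arrays stood apart in their spread, with a median SD over tested probes of 0.44 against 0.24 to 0.29 in the other groups, and pairwise correlations of 0.909 to 0.942. The 14 arrays lay on 4 chips (the slides on which several arrays are scanned together), most of which held several groups, so differences are also given within chips. Defining markers were read as a check of the sort. The basal regulator Trp63 was higher in MaSC-enriched than in luminal cells by 5.94 in pregnant and 6.65 in virgin mice, and Krt5 was detected on every MaSC-enriched and no luminal array, while the luminal keratins Krt18 and Krt19 differed by -2.62 and -3.07 in pregnant and by -3.10 and -4.01 in virgin mice, as log2 differences. Krt14 stood at 13.72 in pregnant luminal cells, and differed from MaSC-enriched cells there by only 0.65, against 2.89 in virgin mice. Krt8, another luminal keratin, differed by -0.80 in pregnant and -0.58 in virgin mice (limma adjusted p = 0.00285 and 0.0532). Of 10 basal markers tested, 7 were higher and 1 lower in MaSC-enriched cells of pregnant mice, and 9 and 0 in virgin mice. The lower one was Itgb4 (-1.20, limma adjusted p = 9.11e-05). Of 11 luminal markers tested, 8 were lower in MaSC-enriched cells of pregnant and 10 of virgin mice, and none was higher. In mixed populations of this kind, fewer cells of a type and less RNA per cell cannot be told apart.

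Accounting for the members that gave no test, Dnajb11 and Sec23b had no probe named for them here. Atf6, the membrane-bound stress sensor, Canx, the membrane lectin chaperone, Ero1l (now Ero1a), the oxidase that feeds disulphide formation, Manf, a secreted stress factor, and Derl1, a component of the channel for degraded proteins, were not well above background on any array. Their raw intensities lay between 84.4 and 149 units. Among the 43 tested, Edem1, Sec62, Sec23a, Copb1 and Arf4 were detected on only part of the arrays. For 16 of the 43, several probes were tested, and the brightest stands for the gene.

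**Figure D1:**
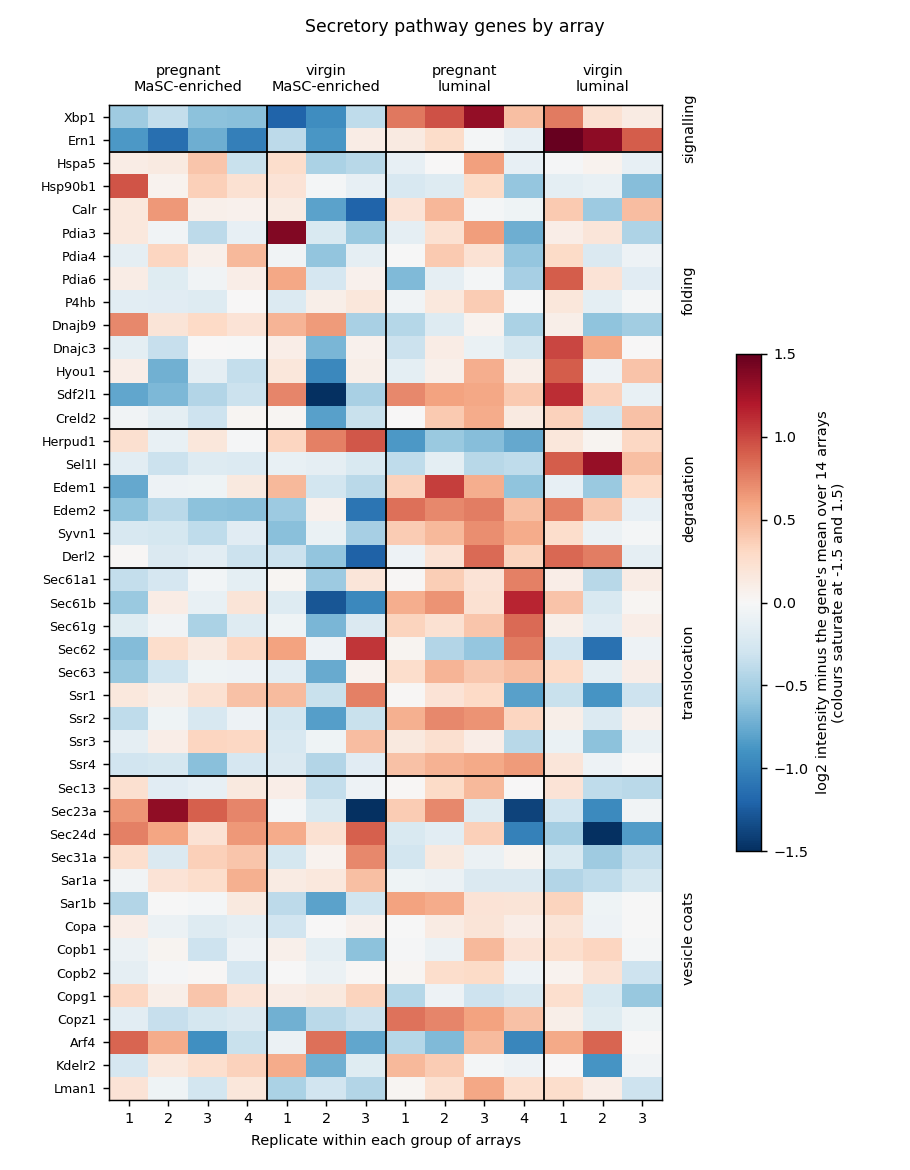
Heat map of the 43 tested genes (rows, by class) on the 14 arrays (columns, by group), as log2 intensity minus the gene's own mean over the 14 arrays; red is above and blue below that mean. Xbp1, Edem2 and Syvn1 are high on most luminal arrays, and Ern1 is high on the virgin luminal arrays and near its mean on the pregnant ones. Most translocation genes are high on pregnant luminal arrays, and most folding genes show no block that follows a group.

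Pregnancy moved few of these genes in luminal cells. Of the 43 tested, 2 rose and 3 fell in pregnant against virgin luminal cells, where 10.9% of all genes tested were called higher and 10.9% lower. The genes that rose were Ssr2, a subunit of the translocon-associated complex, and Copz1, a COPI coat subunit. Those that fell were the sensor Ern1, and Sel1l and Herpud1, which serve the degradation machinery. The median of the 43 differences was 0.22 on the log2 scale (33 above 0 and 10 below), against 0.05 over all genes. Pregnant and virgin arrays did not overlap for 9 of the 43, and for 3832 of all 11349 genes. A lack of overlap is thus common, and does not by itself set a gene apart. Scaling arrays by their median in place of quantiles put the median of all genes at 0.23, that of the members at 0.45, and the calls at 5 rises and 2 falls, and among all genes it moved the share of calls that were higher to 60.5%, from 50.1% with quantile normalization.

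In MaSC-enriched cells none of the 43 passed the threshold in pregnant against virgin mice, where 2.83% of all genes were called higher and 2.31% lower by limma. At an unadjusted p under 0.05, 4 of the 43 were counted (Calr, Herpud1, Sec61b and Sec23a), as were 2255 of all 11349 genes, a larger share. The median difference was 0.06, against 0.03 over all genes. Arrays of the states did not overlap for 4 of the 43 and for 1868 of all genes. The virgin MaSC-enriched arrays, whose spread was the widest, entered this comparison. They lay on chips 1, 2 and 4, while pregnant MaSC-enriched replicates 1 to 3 lay on chip 3. Only chip 4 held both states of this population, with 1 array each, so chip and pregnancy can hardly be told apart here. The interaction, which uses the same arrays, has the same limit.

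Between the populations, more genes differed. In pregnant mice, 3 of 43 were higher and 11 lower in MaSC-enriched than in luminal cells, where 20.2% of all genes were called higher and 23% lower. The lower genes were the pair Xbp1 and Ern1, the degradation genes Edem2 and Syvn1, the chaperone partner Sdf2l1, 5 of 9 translocation genes, and Copz1. Higher in MaSC-enriched cells were Herpud1, Sec24d and Copg1. The median of the members was -0.18, against -0.10 over all genes; with median scaling those medians were -0.38 and -0.23, and with cyclic loess -0.03 and 0.02. The split of calls moved with the scaling, to 0 higher and 13 lower with median scaling and to 7 higher and 8 lower with cyclic loess. Arrays of the populations did not overlap for 17 of the 43 and for 5673 of all 11349 genes.

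In virgin mice, 2 of 43 were higher and 6 lower in MaSC-enriched than in luminal cells, where 15.5% of all genes were called higher and 16.6% lower. Xbp1, Ern1, Sel1l, Edem2, Derl2 and Sec61b were lower, and Sec24d and Sar1a higher. Arrays of the populations did not overlap for 13 of the 43 and for 4274 of all 11349 genes. The median of the members was -0.26, against -0.04 over all genes. With cyclic loess 4 were higher and 5 lower and those medians were -0.14 and 0.04, and with median scaling 2 were higher and 5 lower, with medians of -0.15 and 0.03. Of the 8 genes called in virgin and the 14 called in pregnant mice, 5 were called the same way in both: Xbp1, Ern1, Edem2 and Sec61b lower, and Sec24d higher. The pregnancy difference itself differed between the populations for Sel1l, 1 of 43, where 5.37% of all genes had a significantly higher and 3.39% a significantly lower difference in MaSC-enriched cells; with median scaling none of the 43 passed, and the share of higher calls among all genes was 48.9%, against 61.3% with quantile normalization. In all, 17 of the 43 were called in at least 1 comparison and 26 in none. Over all genes, 20.2% were called higher and 23% lower between populations in pregnant mice alone, so this count does not set the members apart.

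**Figure D2:**
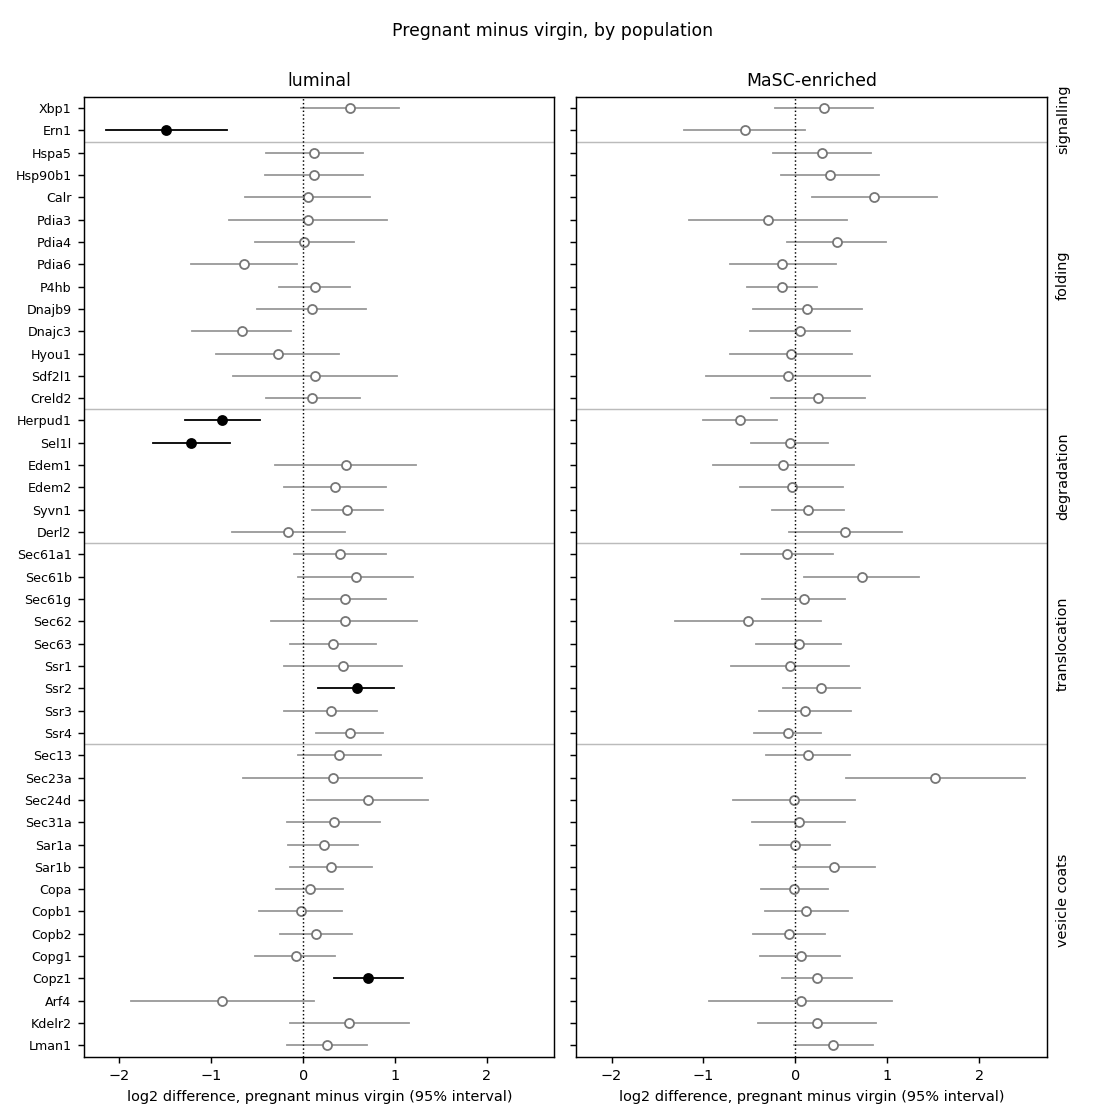
Log2 differences of the 43 genes, pregnant minus virgin, in luminal (left) and MaSC-enriched cells (right), with 95% intervals from the limma fit. Filled points passed an adjusted p of 0.05: 5 in luminal cells and none in MaSC-enriched cells; every translocation gene lies above 0 in luminal cells, by 0.30 to 0.58.

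Xbp1, the transcription factor that drives expansion of the secretory apparatus, was higher in luminal than in MaSC-enriched cells in both states. It was 12.75, 12.93, 12.67 and 12.66 on the pregnant MaSC-enriched arrays, against 14.08, 14.24, 14.61 and 13.74 on the pregnant luminal arrays. In virgin mice it was 12.09, 12.35 and 12.90 in MaSC-enriched cells, against 14.06, 13.52 and 13.41 in luminal cells. No MaSC-enriched array reached the lowest luminal array in either state. The difference, MaSC-enriched minus luminal, was -1.41 (SE 0.23, limma adjusted p = 1.67e-04) in pregnant mice, 2.67-fold lower in MaSC-enriched cells, and -1.22 (SE 0.27, limma adjusted p = 0.00273) in virgin mice, 2.33-fold lower. Within chips that held both populations, it was -1.83 and -1.08 in pregnant mice and -1.97 and -0.51 in virgin mice. Pregnant and virgin luminal arrays overlapped, with pregnant minus virgin at 0.51 (95% interval -0.03 to 1.04, limma adjusted p = 0.188), and median scaling turned this into a call (0.95, adjusted p = 0.0191). In MaSC-enriched cells the same difference was 0.31 (95% interval -0.22 to 0.84, limma adjusted p = 0.555). The spliced and unspliced mRNA are not told apart by these values.

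Ern1, the kinase and ribonuclease that splices Xbp1 mRNA, was highest in virgin luminal cells. All its values come from a single probe, detected on all 14 arrays. A second Ern1 probe was detected on 1 array and another on 0, and neither was tested. Ern1 was 8.77, 8.91, 8.61 and 8.51 on the pregnant luminal arrays, against 11.04, 9.98 and 9.55 on the virgin luminal arrays. All 4 pregnant arrays lay below all 3 virgin arrays, and the difference was -1.49 (SE 0.31, limma adjusted p = 0.00283), 2.82-fold lower in pregnancy. It was lower on each of the 3 chips that held both states, by log2 differences of -2.21, -1.37 and -1.04. Ern1 was lower still, at 7.78, 7.50, 7.90 and 7.61 on the pregnant MaSC-enriched arrays, against 8.24, 7.76 and 8.75 on the virgin MaSC-enriched arrays. Here the states overlapped, and pregnant minus virgin was -0.55 (95% interval -1.21 to 0.11, limma adjusted p = 0.365). The test of a difference between the populations gave 0.94 (SE 0.44, limma adjusted p = 0.228). MaSC-enriched cells were below luminal cells, at differences of -1.0 (SE 0.29, limma adjusted p = 0.0115) in pregnant and -1.94 (SE 0.33, limma adjusted p = 3.35e-04) in virgin mice, with no overlap of arrays in either; the virgin luminal arrays serve both as the baseline for pregnancy and as one side of the virgin comparison. The transcript of the splicing enzyme thus fell in pregnant luminal cells, where its substrate Xbp1 had a difference of 0.51 that did not pass. Among luminal markers, 4 of 11 tested were also lower in pregnant than in virgin luminal cells (Foxa1 with a log2 difference of -3.90, Esr1 with -2.62, and Pgr and Prom1, which were detected on no pregnant luminal array) and none higher, with the log2 of the summed list at 16.01 to 16.32 on pregnant and 16.34 to 16.49 on virgin luminal arrays. Basal markers moved as well, 4 of 10 being higher in pregnant luminal cells, with sums of 14.95 to 15.25 against 13.12 to 14.66 in virgin luminal cells. Leukocyte sums were 12.32 to 12.76 on pregnant against 13.49 to 13.61 on virgin luminal arrays, with Cd14 at -1.10 and Cd52 at 1.21 (limma adjusted p = 0.0191 and 0.0367). Cd14, with means of 12.39 on pregnant and 13.49 on virgin luminal arrays, made up most of those sums. The sums thus follow Cd14 and cannot be read as leukocyte content. The other leukocyte markers tested, Cd3e, Csf1r and Laptm5, were at 0.65, 0.76 and 1.06, and none passed (limma adjusted p = 0.248, 0.0964 and 0.19). Fibroblast sums were 11.59 to 13.68 against 13.60 to 14.91, with Dcn at -2.36 and Col1a1 at 1.5 (limma adjusted p = 9.09e-04 and 0.0369). Irf4, of the plasma and B cell list, was at -1.27 (limma adjusted p = 0.0117). The part of these marker shifts in the fall of Ern1 or of any other member was not tested.

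**Figure D3:**
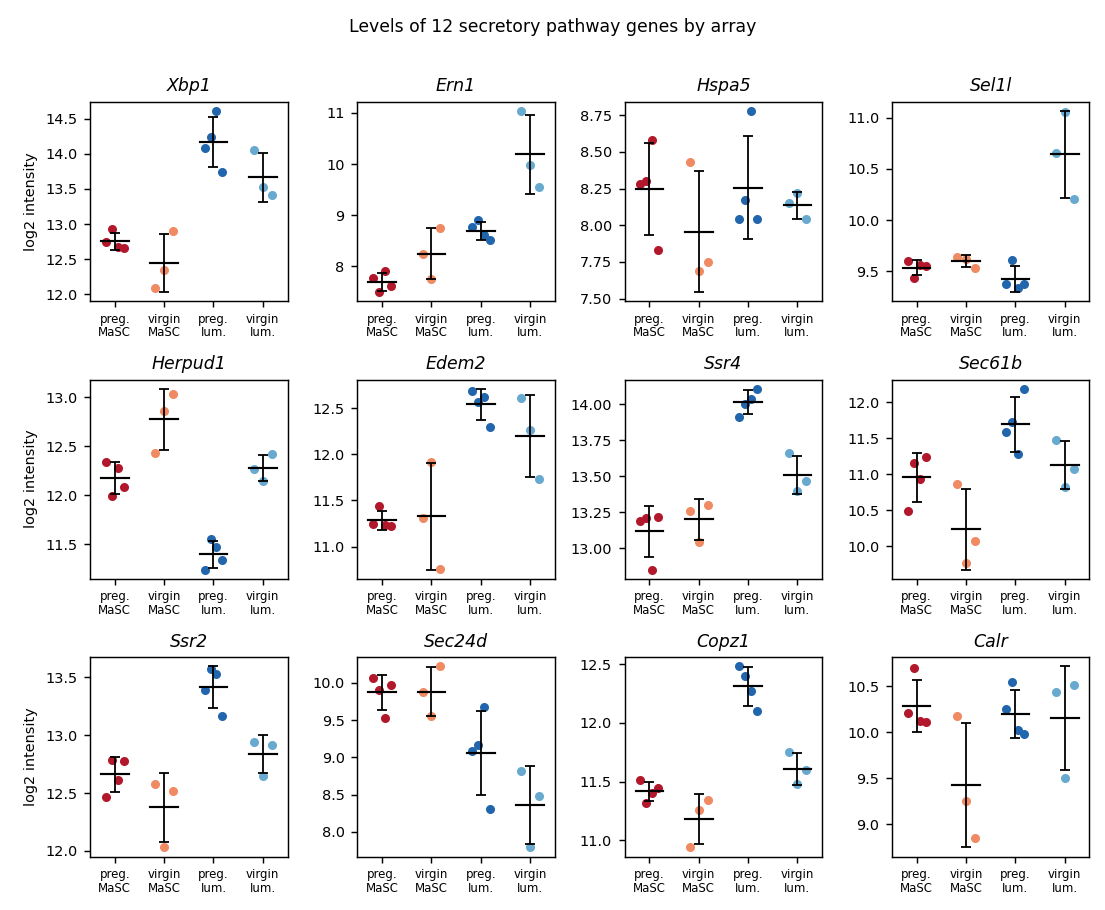
Log2 intensity of 12 genes on each array, in the order pregnant MaSC-enriched, virgin MaSC-enriched, pregnant luminal and virgin luminal; bars are the mean and SD of 4 or 3 arrays, and vertical axes differ between genes and do not start at 0. Ern1 and Sel1l are highest on the virgin luminal arrays, Ssr2, Ssr4 and Copz1 peak on the pregnant luminal arrays, and Hspa5 overlaps across all groups.

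No folding gene passed the test for pregnancy in either population. By limma 0 of 12 were called in luminal cells (2 at an unadjusted p under 0.05) and 0 of 12 in MaSC-enriched cells (1 at an unadjusted p under 0.05). Over all 11349 genes tested, 10.9% were called in each direction in luminal cells, and 3765 stood at an unadjusted p under 0.05. In MaSC-enriched cells 2.83% were higher and 2.31% lower, with 2255 at that p, so 0 of 12 is near the background there. The median difference of the folding genes, pregnant minus virgin, was 0.07 in luminal cells, which became -0.05 with cyclic loess and 0.17 with median scaling, and 0.09 in MaSC-enriched cells. Hspa5 (BiP), the main chaperone of the endoplasmic reticulum and the classic readout of its stress, was 8.04, 8.17, 8.78 and 8.04 on pregnant luminal arrays, against 8.15, 8.22 and 8.04 on virgin luminal arrays. On MaSC-enriched arrays it was 8.28, 8.30, 8.58 and 7.83 in pregnant, against 8.43, 7.69 and 7.75 in virgin mice. All 4 groups overlapped, and replicate 3 of the pregnant luminal arrays was the highest of the 14. Pregnant minus virgin was 0.12 in luminal cells (95% interval -0.41 to 0.65, limma adjusted p = 0.805) and 0.29 in MaSC-enriched cells (95% interval -0.24 to 0.82, limma adjusted p = 0.581). Changes within those intervals are not excluded by these arrays, and the sign of the luminal value turned to -0.05 without pregnant luminal replicate 3.

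Hsp90b1 (GRP94), the Hsp90 chaperone of the endoplasmic reticulum, was 14.54, 13.65, 13.95 and 13.82 on pregnant MaSC-enriched arrays, against 13.35, 13.40, 13.88 and 13.02 on pregnant luminal arrays. In virgin mice it was 13.80, 13.57 and 13.47 in MaSC-enriched cells, against 13.45, 13.48 and 12.96 in luminal cells. MaSC-enriched minus luminal was 0.58 (SE 0.23, limma adjusted p = 0.0622) in pregnant mice, where 1 luminal array, replicate 3, overlapped the MaSC-enriched range. Calr, the soluble lectin chaperone, was 10.21, 10.70, 10.12 and 10.11 on the pregnant MaSC-enriched arrays, against 10.17, 9.25 and 8.85 on the virgin MaSC-enriched arrays. Virgin replicates 2 and 3 were low and virgin replicate 1 lay within the pregnant range, and the difference of 0.86 (SE 0.32, limma adjusted p = 0.155) missed the threshold; when the first virgin MaSC-enriched array was left out it passed (adjusted p = 0.0309). Calr was 10.25, 10.55, 10.02 and 9.98 on the pregnant luminal arrays, against 10.44, 9.50 and 10.51 on the virgin luminal arrays. These overlapped, with a difference of 0.05.

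Pdia6 and Dnajc3 had the largest luminal differences of the class, both downward and neither past the threshold. Pdia6 was 8.21, 8.73, 8.84 and 8.37 on the pregnant luminal arrays, against 9.78, 9.07 and 8.70 on the virgin luminal arrays. Dnajc3 was 8.32, 8.75, 8.54 and 8.38 on the pregnant luminal arrays, against 9.64, 9.21 and 8.65 on the virgin luminal arrays. Virgin luminal replicate 1 was the highest of the 14 arrays for both genes, and in both the lowest virgin array lay within the pregnant range. The difference was -0.64 (SE 0.27, limma adjusted p = 0.114) for Pdia6, a disulphide isomerase, and -0.67 (SE 0.25, limma adjusted p = 0.0819) for Dnajc3 (P58IPK), a co-chaperone of BiP. Without virgin luminal replicate 3 both passed (adjusted p = 0.0435 and 0.0221), and Dnajc3 passed with the chip as a block (adjusted p = 0.0329). A second Pdia6 probe gave 0.14, so the probes of this gene disagreed in sign. Pdia6 was 8.98, 8.69, 8.82 and 8.97 on the pregnant MaSC-enriched arrays, against 9.45, 8.62 and 8.93 on the virgin MaSC-enriched arrays, and Dnajc3 was 8.49, 8.30, 8.65 and 8.63 on the pregnant MaSC-enriched arrays, against 8.74, 7.96 and 8.71 on the virgin MaSC-enriched arrays. Both overlapped there.

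Sdf2l1, a BiP partner that rises with folding stress, was the folding gene called between populations. It was 7.30, 7.41, 7.65 and 7.76 on pregnant MaSC-enriched arrays, against 8.80, 8.69, 8.67 and 8.48 on pregnant luminal arrays, with no overlap. The difference was -1.13 (SE 0.39, limma adjusted p = 0.0299), 2.19-fold lower in MaSC-enriched cells. The call ended with cyclic loess (adjusted p = 0.0653), without a filter on dim probes (0.0786), and when any of pregnant luminal replicates 1 to 3 or pregnant MaSC-enriched replicates 1 to 3 was left out (0.0516 to 0.0729). In virgin mice it was 8.82, 6.41 and 7.60 in MaSC-enriched cells, against 9.19, 8.43 and 7.97 in luminal cells, a difference of -0.92 (SE 0.45, limma adjusted p = 0.143), which passed without virgin MaSC-enriched replicate 1 (0.00602). Dnajb9 (ERdj4), a BiP co-chaperone, ran the other way, at 12.11, 11.59, 11.69 and 11.60 on pregnant MaSC-enriched arrays, against 10.97, 11.20, 11.44 and 10.92 on pregnant luminal arrays. Its groups did not overlap, and the difference of 0.61 (SE 0.26, limma adjusted p = 0.0705) missed the threshold, which it passed with the chip as a block (0.0359). In virgin mice Dnajb9 was 11.90, 12.03 and 10.91 in MaSC-enriched cells, against 11.48, 10.79 and 10.87 in luminal cells, where replicate 3 of the MaSC-enriched arrays lay inside the luminal range.

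The remaining folding genes passed in no comparison. Hyou1, a large chaperone that works with BiP, was 6.96, 7.19, 7.66 and 7.20 on pregnant luminal arrays, against 8.02, 7.03 and 7.54 on virgin luminal arrays, and 7.21, 6.39, 6.97 and 6.75 on the pregnant MaSC-enriched arrays, against 7.28, 6.14 and 7.20 on the virgin MaSC-enriched arrays. Pdia4, a disulphide isomerase, was 10.63, 11.08, 10.83 and 11.25 on the pregnant MaSC-enriched arrays, against 10.71, 10.17 and 10.63 on the virgin MaSC-enriched arrays, a difference of 0.45 (SE 0.25, limma adjusted p = 0.366). Its luminal values were 10.75, 11.15, 10.98 and 10.18 in pregnant, against 11.05, 10.54 and 10.68 in virgin mice, and overlapped. Over the 14 arrays Pdia3, the isomerase for glycoproteins, ran from 11.23 to 13.35, P4hb, the founding disulphide isomerase, from 13.47 to 14.05, and Creld2, a stress-induced isomerase partner, from 9.87 to 11.24. Virgin MaSC-enriched replicate 1 held the top value of Pdia3, apart from all other arrays. Across the 7 tested genes with the stress element in their promoters, shown above for Hspa5 and the others, pregnant minus virgin ran from -0.67 to 0.48 in luminal cells (median 0.10, 0 called) and from -0.14 to 0.86 in MaSC-enriched cells (median 0.25, 0 called). These 7 include the degradation gene Syvn1, which gave the 0.48. No tested folding gene lay above 0.13 in luminal cells. For the 31 tested genes whose promoter lacked the stress element, the medians were 0.30 with 4 called in luminal cells and 0.04 with 0 called in MaSC-enriched cells. Over all genes 10.9% were called in each direction in luminal cells, and 2.83% higher and 2.31% lower in MaSC-enriched cells.

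Degradation genes split by direction. Sel1l, the adaptor that joins substrates to the ubiquitin ligase Hrd1, was 9.37, 9.61, 9.34 and 9.37 on pregnant luminal arrays, against 10.66, 11.06 and 10.21 on virgin luminal arrays. The arrays did not overlap, and the difference was -1.22 (SE 0.20, limma adjusted p = 4.05e-04), 2.33-fold lower in pregnancy. Within the 3 chips it was -1.17, -1.71 and -0.84, and a second probe detected on all arrays gave -0.97 (adjusted p = 0.0862). A dim probe, detected on 4 of the 14 arrays, gave -1.01 (adjusted p = 0.00494). Sel1l was 9.60, 9.43, 9.56 and 9.55 on the pregnant MaSC-enriched arrays, against 9.64, 9.62 and 9.53 on the virgin MaSC-enriched arrays. These overlapped, with a difference of -0.06 (95% interval -0.48 to 0.36). The interaction, pregnancy difference in MaSC-enriched minus that in luminal cells, was 1.16 (SE 0.28, limma adjusted p = 0.0186). That call ended with median scaling (0.93, adjusted p = 0.0738), with the chip as a block (1.11, 0.0548) and without virgin luminal replicate 2 (0.0503), and the second probe gave 1.14 (adjusted p = 0.231) and the dim one 0.71 (0.212). In virgin mice Sel1l was lower in MaSC-enriched cells, with a log2 difference of -1.05 (SE 0.21, limma adjusted p = 0.0014), a comparison that shares the virgin luminal arrays, and in pregnant mice MaSC-enriched minus luminal was 0.11 (limma adjusted p = 0.665).

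Herpud1, a stress-induced membrane protein of the same ligase complex, fell in luminal cells too. Herpud1 was 11.24, 11.55, 11.47 and 11.34 on the pregnant luminal arrays, against 12.27, 12.15 and 12.42 on the virgin luminal arrays. No arrays overlapped, and the difference was -0.88 (SE 0.19, limma adjusted p = 0.00394), 1.84-fold lower, with -0.87, -0.68 and -1.08 within chips. With median scaling it no longer passed (-0.66, adjusted p = 0.0692). Herpud1 was 12.34, 11.99, 12.28 and 12.09 on the pregnant MaSC-enriched arrays, against 12.43, 12.86 and 13.04 on the virgin MaSC-enriched arrays, again without overlap, and the difference of -0.60 (SE 0.19, limma adjusted p = 0.0944) missed the threshold, which it passed when the first virgin MaSC-enriched array was left out (0.0364) or background correction was omitted (0.0383). The interaction was 0.28 (95% interval -0.30 to 0.85). A difference in pregnancy response between populations was thus not detected, and values within that interval are not excluded. Herpud1 was higher in MaSC-enriched than in luminal cells, by 0.77 (SE 0.18, limma adjusted p = 0.00262) in pregnant mice, 1.71-fold, a call that median scaling ended (0.56, 0.0569), while 0.50 (SE 0.20, limma adjusted p = 0.0832) in virgin mice did not pass. The virgin difference passed for a second probe (0.73, adjusted p = 0.0263), for the mean of both (0.0236), with no background correction (0.0336) and with the first virgin MaSC-enriched array left out (0.0262).

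Edem2, which trims mannose from misfolded glycoproteins, and Syvn1 (Hrd1), the ubiquitin ligase, were lower in MaSC-enriched than in luminal cells of pregnant mice. Edem2 was 11.25, 11.44, 11.23 and 11.22 on pregnant MaSC-enriched arrays, against 12.68, 12.57, 12.62 and 12.30 on pregnant luminal arrays. Syvn1 was 12.07, 12.04, 11.92 and 12.14 on pregnant MaSC-enriched arrays, against 12.69, 12.79, 13 and 12.86 on pregnant luminal arrays. Neither gene overlapped, at -1.26 (SE 0.24, limma adjusted p = 7.07e-04) for Edem2, 2.39-fold lower in MaSC-enriched cells, and -0.79 (SE 0.17, limma adjusted p = 0.00162) for Syvn1, 1.73-fold lower. In virgin mice Edem2 was 11.31, 11.92 and 10.76 in MaSC-enriched cells, against 12.61, 12.26 and 11.73 in luminal cells, with 1 overlapping array on each side. The difference was -0.87 (SE 0.28, limma adjusted p = 0.0294), and the call ended without virgin luminal replicate 1 (adjusted p = 0.138), virgin luminal replicate 2 (0.0787), virgin MaSC-enriched replicate 1 (0.0615) or virgin MaSC-enriched replicate 3 (0.122), and in a fit of the virgin arrays alone (0.171). With the chip as a block the difference was -1.15 (adjusted p = 0.00139), and 3 further probes were lower as well, at -1.67, -1.89 and -0.61 (adjusted p = 0.0229, 0.0247 and 0.0496). Syvn1 in virgin mice was 11.68, 12.21 and 11.81 in MaSC-enriched cells, against 12.57, 12.22 and 12.27 in luminal cells, and these did not overlap, by a narrow margin (difference -0.45, SE 0.20, limma adjusted p = 0.103). This passed with the chip as a block (-0.61, adjusted p = 0.042), with array weights (0.0293) and with no background correction (0.0403). Pregnant minus virgin luminal was 0.48 (SE 0.18, limma adjusted p = 0.0824) for Syvn1, whose arrays did not overlap, and the gene passed with median scaling (0.0213) and without background correction (0.0271).

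Derl2, a channel component for proteins on their way out, was 8.52, 8.25 and 7.63 on virgin MaSC-enriched arrays, against 9.71, 9.62 and 8.71 on virgin luminal arrays. All virgin MaSC-enriched arrays were lower, with a log2 difference of -1.22 (SE 0.31, limma adjusted p = 0.00744), 2.32-fold, and a fit of the virgin arrays alone gave an adjusted p of 0.0639. In pregnant mice Derl2 was 8.86, 8.63, 8.69 and 8.53 in MaSC-enriched cells, against 8.77, 9.06, 9.70 and 9.18 in luminal cells, with 1 overlapping array on each side (difference -0.50, SE 0.27, limma adjusted p = 0.151). Edem1, a lectin-like partner of Edem2, was near background, at 4.91, 5.60, 5.61 and 5.83 on the pregnant MaSC-enriched arrays, against 6.17, 5.40 and 5.28 on the virgin MaSC-enriched arrays. It was 6.02, 6.72, 6.23 and 5.08 on the pregnant luminal arrays, against 5.56, 5.12 and 5.98 on the virgin luminal arrays. The gene was detected on 7 of the 14 arrays and passed in no comparison.

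**Figure D4:**
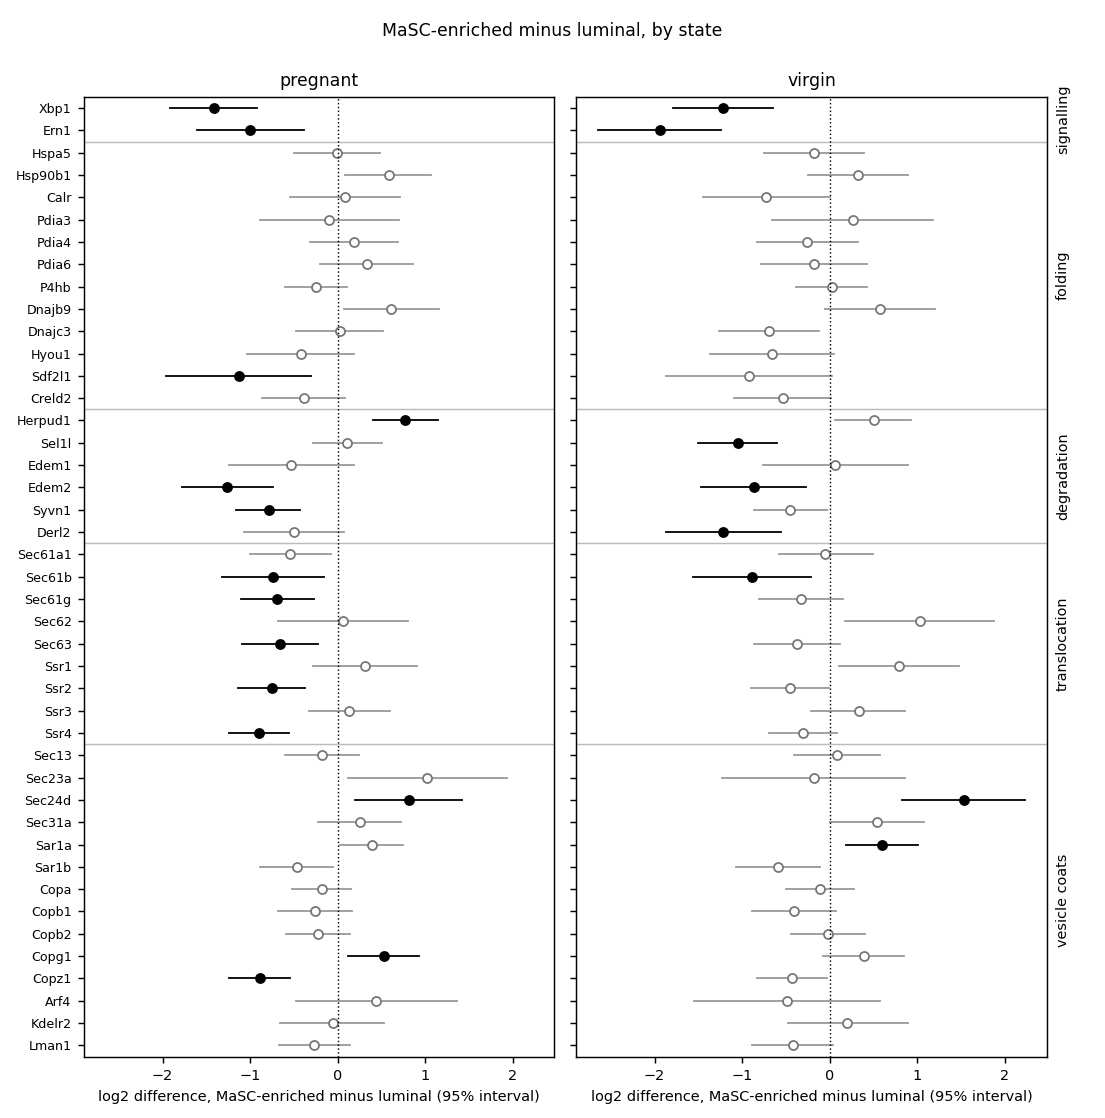
Log2 differences of the 43 genes, MaSC-enriched minus luminal, in pregnant (left) and virgin mice (right), with 95% intervals from the limma fit. Filled points passed an adjusted p of 0.05: 14 in pregnant and 8 in virgin mice; Xbp1 and Ern1 lie left of 0 in both, and Sec24d right of 0 in both.

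Among translocation genes, 1 of 9 rose in pregnant luminal cells, where 10.9% of all genes did. In pregnant mice 5 of 9 were lower in MaSC-enriched than in luminal cells. All 9 had a positive difference, pregnant minus virgin luminal, from 0.30 to 0.58 with a median of 0.45 (0.38 with cyclic loess, 0.58 with median scaling), against 0.05 over all genes (0.01 and 0.23). No alternative run turned the sign of any of the 9. The mean of the 9 log2 values was 11.43 ± 0.07 (SD, n = 4) on pregnant luminal arrays, against 10.99 ± 0.26 (SD, n = 3) on virgin luminal arrays, and the ranges of 11.37 to 11.52 and 10.69 to 11.17 did not overlap. Within chips the median of the 9 was 0.19, 0.62 and 0.63. On chip 4, however, the luminal difference was -0.51 for Ssr1 and -0.29 for Ssr3. A second Ssr1 probe gave 0.00 over all luminal arrays. In MaSC-enriched cells the median was 0.04 (-0.05 with cyclic loess, -0.11 with median scaling), with 5 of 9 above 0. MaSC-enriched minus luminal had a median of -0.66 in pregnant mice, with 6 of 9 below 0 and 5 called lower where 23% of all genes were, and -0.31 in virgin mice, with 1 called lower where 16.6% of all genes were. Sec62, Ssr1 and Ssr3 were above 0 in pregnant mice.

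In the translocon-associated complex, which sits beside the channel, Ssr2 passed for pregnancy in luminal cells and Ssr4 came close. Ssr2 was 13.39, 13.57, 13.53 and 13.17 on pregnant luminal arrays, against 12.94, 12.65 and 12.92 on virgin luminal arrays. All pregnant arrays were higher, by 0.58 (SE 0.19, limma adjusted p = 0.0487), 1.49-fold, close to the threshold: the call ended with cyclic loess (adjusted p = 0.0921), in a fit of the luminal arrays alone (0.0584), with a replicate block (0.0831), and without any one of 10 arrays, which were every virgin luminal array, pregnant luminal replicates 1 to 3 and every pregnant MaSC-enriched array (0.0569 to 0.176). Ssr4 was 13.91, 14, 14.04 and 14.11 on pregnant luminal arrays, against 13.66, 13.40 and 13.47 on virgin luminal arrays, also without overlap. Its difference of 0.51 (SE 0.17, limma adjusted p = 0.0515) missed the threshold by little, and passed with an offset of 50 (0.0233), with the authors' deposited values (0.0288) and with median scaling (0.0366). Ssr2 was 12.47, 12.79, 12.61 and 12.78 on the pregnant MaSC-enriched arrays, against 12.58, 12.03 and 12.52 on the virgin MaSC-enriched arrays. Ssr4 was 13.19, 13.21, 12.85 and 13.22 on the pregnant MaSC-enriched arrays, against 13.26, 13.04 and 13.30 on the virgin MaSC-enriched arrays. Both overlapped between states. In pregnant mice MaSC-enriched cells were lower than luminal cells, with a log2 difference of -0.90 (SE 0.16, limma adjusted p = 3.36e-04) for Ssr4, 1.86-fold, and -0.75 (SE 0.18, limma adjusted p = 0.00361) for Ssr2, 1.68-fold, with no overlap. Of their partners, Ssr1 was 8.97, 9.16, 9.25 and 8.13 on pregnant luminal arrays, against 8.62, 8.07 and 8.64 on virgin luminal arrays, and 9.11, 9.04, 9.18 and 9.39 on the pregnant MaSC-enriched arrays, against 9.42, 8.61 and 9.70 on the virgin MaSC-enriched arrays; Ssr3 ran from 12.02 to 13.10 over all arrays. Neither passed in any comparison. MaSC-enriched minus luminal, Ssr1 gave 0.31 in pregnant and 0.79 in virgin mice (limma adjusted p = 0.413 and 0.0771), and the virgin value passed with the chip as a block (0.026).

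Of the channel itself, Sec61b, the beta subunit, was 10.49, 11.16, 10.94 and 11.24 on pregnant MaSC-enriched arrays, against 11.59, 11.72, 11.28 and 12.19 on pregnant luminal arrays. It was 10.86, 9.77 and 10.08 on virgin MaSC-enriched arrays, against 11.48, 10.82 and 11.08 on virgin luminal arrays. MaSC-enriched cells were lower in both states, with a log2 difference of -0.74 (SE 0.27, limma adjusted p = 0.0428) in pregnant and -0.89 (SE 0.31, limma adjusted p = 0.0447) in virgin mice. The pregnant call ended with the chip as a block (-0.46, adjusted p = 0.192), with cyclic loess (0.0756), with no filter on dim probes (0.0813) and without any one of 7 arrays (0.0502 to 0.133: pregnant luminal replicates 1, 2 and 4, pregnant MaSC-enriched replicates 1 to 3 and virgin luminal replicate 3). The virgin call ended with the chip as a block (0.0574), with median scaling (0.122), with cyclic loess (0.068), with no filter on dim probes (0.0847), in a fit of the virgin arrays alone (0.136) and without any one of 9 arrays (0.0526 to 0.171: virgin luminal replicates 1 and 3, virgin MaSC-enriched replicates 2 and 3, pregnant luminal replicates 1 and 2 and pregnant MaSC-enriched replicates 2 to 4). Sec61g, the gamma subunit, was 13.02, 13.15, 12.72 and 13.01 on pregnant MaSC-enriched arrays, against 13.53, 13.43, 13.62 and 14.05 on pregnant luminal arrays, a non-overlapping difference of -0.69 (SE 0.20, limma adjusted p = 0.0111) that cyclic loess ended (0.0604). In virgin mice it was 13.14, 12.52 and 12.98 in MaSC-enriched cells, against 13.29, 13.04 and 13.30 in luminal cells, and overlapped.

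Sec61a1, the pore subunit, was 10.35, 10.45, 10.66 and 10.56 on pregnant MaSC-enriched arrays, against 10.72, 11.08, 10.91 and 11.46 on pregnant luminal arrays. The arrays did not overlap, but -0.54 (SE 0.22, limma adjusted p = 0.0616) missed the threshold; it passed with the replicate block (0.0343) and with median scaling (0.037). Its values in virgin mice were 10.73, 10.16 and 10.89 in MaSC-enriched cells, against 10.81, 10.29 and 10.82 in luminal cells. Sec63, which recruits BiP to the channel, was 10.40, 10.67, 10.91 and 10.89 on pregnant MaSC-enriched arrays, against 11.23, 11.48, 11.37 and 11.43 on pregnant luminal arrays. All MaSC-enriched arrays were lower, with a log2 difference of -0.66 (SE 0.20, limma adjusted p = 0.0169), 1.58-fold, a call that ended without pregnant MaSC-enriched replicate 1 (0.0591). In virgin mice Sec63 was 10.81, 10.22 and 11.02 in MaSC-enriched cells, against 11.27, 10.83 and 11.07 in luminal cells. Its partner Sec62 lay near background, at 5.53, 6.44, 6.31 and 6.49 on the pregnant MaSC-enriched arrays, against 6.78, 6.10 and 7.25 on the virgin MaSC-enriched arrays. It was 6.22, 5.74, 5.60 and 6.95 on the pregnant luminal arrays, against 5.89, 5.06 and 6.10 on the virgin luminal arrays. It was detected on 10 of 14 arrays, and the difference of MaSC-enriched from luminal cells in virgin mice of 1.03 (SE 0.40, limma adjusted p = 0.0682) was the largest of the class without passing, although the replicate block brought it to an adjusted p of 0.0253 and the chip block to 0.0212.

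Vesicle coat genes were mixed in sign. Pregnant minus virgin luminal had a median of 0.28 (0.17 with cyclic loess, 0.45 with median scaling) with 1 of 14 called, and in MaSC-enriched cells of 0.09 with 0 of 14 called. Over all genes 10.9% were called in each direction in luminal cells, and 2.83% higher and 2.31% lower in MaSC-enriched cells. MaSC-enriched minus luminal had a median of -0.12 in pregnant mice (0.03 with cyclic loess, -0.32 with median scaling) and -0.07 in virgin mice (0.04 and 0.11), so no direction held across scalings there. Copz1, the zeta subunit of COPI, was 12.48, 12.40, 12.27 and 12.10 on pregnant luminal arrays, against 11.75, 11.48 and 11.60 on virgin luminal arrays. All pregnant arrays were higher, by 0.70 (SE 0.18, limma adjusted p = 0.0105), 1.63-fold, with 0.69, 0.78 and 0.50 within chips. A second, dim probe detected on 7 arrays gave 0.01, and averaging both ended the call (0.36, adjusted p = 0.218). Copz1 was 11.51, 11.32, 11.40 and 11.45 on the pregnant MaSC-enriched arrays, against 10.94, 11.26 and 11.34 on the virgin MaSC-enriched arrays, below luminal cells in pregnant mice, with a log2 difference of -0.89 (SE 0.16, limma adjusted p = 4.41e-04), 1.86-fold, without overlap.

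Sec24d, which picks cargo for COPII vesicles, ran opposite to Xbp1. It was 9.88, 9.55 and 10.22 on virgin MaSC-enriched arrays, against 8.81, 7.79 and 8.48 on virgin luminal arrays. In pregnant mice it was 10.07, 9.91, 9.53 and 9.97 in MaSC-enriched cells, against 9.09, 9.16, 9.68 and 8.31 in luminal cells. The virgin arrays did not overlap and the pregnant arrays overlapped by 1 on each side. MaSC-enriched cells were higher by 1.53 (SE 0.33, limma adjusted p = 0.00258) in virgin mice, 2.88-fold, and by 0.81 (SE 0.29, limma adjusted p = 0.0356) in pregnant mice, where the chip block (0.0555), median scaling (0.0875), no filter on dim probes (0.0734) and leaving out pregnant luminal replicate 1, 2 or 4 or pregnant MaSC-enriched replicate 1, 2 or 4 (0.0564 to 0.117) ended the call. Within chips the pregnant difference was 0.16 on the one and 1.66 on the other. Pregnant minus virgin luminal was 0.70 (SE 0.31, limma adjusted p = 0.138), which passed without pregnant luminal replicate 4 (0.0323). Its partner Sec23a, the GTPase activator of the coat, was dim, at 7.32, 7.99, 7.56 and 7.39 on the pregnant MaSC-enriched arrays, against 6.63, 6.43 and 5.07 on the virgin MaSC-enriched arrays. The 4 pregnant arrays lay above the 3 virgin ones by 1.52 (SE 0.46, limma adjusted p = 0.0772), short of the threshold. It passed with the chip as a block (2.10, 0.0212) and without pregnant luminal replicate 4 (0.0308). It also passed with the replicate block (0.0419), which for pregnancy joins arrays of different animals by number alone. Luminal values were 7.04, 7.38, 6.47 and 5.27 in pregnant, against 6.36, 5.70 and 6.61 in virgin mice.

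The GTPases that start COPII assembly, Sar1a and Sar1b, had differences of opposite sign between populations. Sar1a was 10.89, 10.93 and 11.22 on virgin MaSC-enriched arrays, against 10.33, 10.39 and 10.51 on virgin luminal arrays, higher by 0.60 (SE 0.19, limma adjusted p = 0.0285), 1.52-fold. The call ended with the replicate block (0.0516), with the chip as a block (0.0505), in a fit of the virgin arrays alone (0.14), and without virgin luminal replicate 1 (0.0902), virgin luminal replicate 2 (0.0714) or virgin MaSC-enriched replicate 3 (0.0866). In pregnant mice Sar1a was 10.72, 10.98, 11.04 and 11.30 in MaSC-enriched cells, against 10.71, 10.68, 10.56 and 10.55 in luminal cells, again without overlap (difference 0.39, SE 0.17, limma adjusted p = 0.0811). Sar1b was 11.11, 11.55, 11.53 and 11.70 on pregnant MaSC-enriched arrays, against 12.16, 12.11, 11.76 and 11.75 on pregnant luminal arrays. It was 11.16, 10.75 and 11.25 on virgin MaSC-enriched arrays, against 11.89, 11.49 and 11.55 on virgin luminal arrays. MaSC-enriched arrays were the lower in both states without overlap, at -0.47 (SE 0.20, limma adjusted p = 0.0671) in pregnant and -0.59 (SE 0.23, limma adjusted p = 0.0624) in virgin mice, and neither passed. Both passed with the authors' deposited values (0.0491 and 0.0435), an offset of 50 (0.0463 and 0.0424), no background correction (0.0346 and 0.0323) and array weights (0.00505 and 0.0331), and a second probe passed in pregnant (-0.53, 0.0448) but not in virgin mice (-0.43, 0.182).

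Copg1, the gamma subunit of COPI, was 10.56, 10.34, 10.67 and 10.46 on pregnant MaSC-enriched arrays, against 9.82, 10.17, 9.94 and 10.01 on pregnant luminal arrays. The brightest probe was higher in MaSC-enriched cells by 0.53 (SE 0.19, limma adjusted p = 0.038), but 3 further probes gave -0.18, -0.47 and -0.39, and their mean with it gave -0.13 (adjusted p = 0.627). The call also ended with median scaling (0.243), with the replicate block (0.0707), with the chip as a block (0.0527) and without pregnant luminal replicate 1, 3 or 4 or pregnant MaSC-enriched replicate 1, 3 or 4 (0.0564 to 0.104), so Copg1 has no settled direction. Pregnant minus virgin luminal, its brightest probe gave -0.08 and the other 3 gave 0.75, 0.99 and 1.2, with an adjusted p of 0.0229 for the mean of all 4. In virgin mice it was 10.36, 10.40 and 10.59 in MaSC-enriched cells, against 10.50, 10.02 and 9.68 in luminal cells. Lman1, the lectin cargo receptor between the endoplasmic reticulum and the Golgi, was 11.19, 10.92, 10.71 and 11.16 on the pregnant MaSC-enriched arrays, against 10.51, 10.70 and 10.55 on the virgin MaSC-enriched arrays, without overlap, and 0.41 (SE 0.20, limma adjusted p = 0.3) did not pass. Its luminal values of 11.02, 11.22, 11.57 and 11.24 in pregnant, against 11.25, 11.09 and 10.68 in virgin mice overlapped. Arf4, a GTPase of Golgi traffic, was near background, detected on 8 of 14 arrays, at 5.53, 5.29, 6.43 and 4.97 on pregnant luminal arrays, against 6.52, 6.83 and 5.95 on virgin luminal arrays (difference -0.88, SE 0.47, limma adjusted p = 0.223), and at 6.83, 6.51, 5.03 and 5.62 on the pregnant MaSC-enriched arrays, against 5.87, 6.78 and 5.17 on the virgin MaSC-enriched arrays.

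The other coat genes passed in no comparison. Over the 14 arrays Sec13, shared by the outer COPII coat, ran from 12.48 to 13.37, and its partner Sec31a from 9.29 to 10.54. The COPI subunits Copa, Copb1 and Copb2 ran from 11.79 to 12.28, from 5.05 to 6.15 (near background) and from 12.68 to 13.28. Kdelr2, the receptor that returns escaped chaperones, ran from 9.69 to 11.13. Copa and Copb2 thus spanned less than a log2 unit over every group. The 4 coat genes whose promoters hold the Xbp1 core element had differences, pregnant minus virgin luminal, from -0.03 to 0.70, and 0 of 4 passed; MaSC-enriched minus luminal, Sec24d alone of these passed.

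Beside the population differences, other cell types' markers also differed between the gates. In pregnant mice 6 of 6 tested endothelial markers were higher in MaSC-enriched than in luminal cells, with the log2 of the summed list at 11.60 to 13.52 against 10.14 to 11.23. In virgin mice 1 of 6 was higher, with sums of 12.16 to 13.10 against 10.30 to 11.34. Fibroblast sums were 14.65 to 15.20 in MaSC-enriched against 11.59 to 13.68 in luminal cells of pregnant mice, with 2 of 7 higher, and 14.37 to 14.93 against 13.60 to 14.91 in virgin mice, with 1 of 7 higher. Plasma cells are rich in secretory machinery, and 7 of the 9 plasma and B cell markers with a probe, among them Igj, Mzb1, Tnfrsf17 and Prdm1, were not detected on enough arrays to be tested. Of the 2 tested, Pou2af1 was detected on every MaSC-enriched and no luminal array, and Irf4 was lower in MaSC-enriched cells of virgin mice (-1.44, adjusted p = 0.00524); the summed pair was 7.53 to 8.13 against 5.85 to 6.52 in luminal cells of pregnant mice, and 6.58 to 8.38 against 6.42 to 7.47 in virgin mice. Among leukocyte markers Ptprc, Cd3g, Itgam and Itgax were not detected, and of the 5 tested Cd3e was higher in MaSC-enriched cells of pregnant mice (1.54, adjusted p = 0.00182) and Cd14 lower in both states (-2.44 in pregnant and -3.26 in virgin mice, adjusted p = 6.06e-06 and 1.75e-06). Leukocyte sums were 10.63 to 11.15 in MaSC-enriched against 12.32 to 12.76 in luminal cells of pregnant mice, and 10.25 to 11.23 against 13.49 to 13.61 in virgin mice. In luminal cells Cd14 made up most of these sums, so the luminal sums follow Cd14 and cannot be read as leukocyte content. Of 2 adipocyte markers tested, Lep was higher in MaSC-enriched cells in both states, and of 2 erythroid markers Alas2 was lower in both and Hba-a1 in virgin mice. The part of these cell types in the differences between populations was not tested.

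A further 125 genes of the same pathways, grouped in 6 lists, were read from the same fit, and 109 of them were tested. In pregnant against virgin luminal cells 15 rose and 9 fell, with a median of 0.06, where 10.9% of all genes were called in each direction with a median of 0.05. Of these 24 calls, 12 were lost on leaving out some array. The folding and disulphide list gave 4 rises and 3 falls of 22, the stress regulators 3 and 1 of 13, glycosylation 3 and 2 of 14, targeting and signal peptidase 2 and 0 of 16, degradation 1 and 0 of 11, and the coat and cargo list 2 and 3 of 33. The 2 regulators with the largest rises were Bhlha15 (Mist1), a transcription factor of professional secretory cells, and Creb3l1 (OASIS), a membrane-bound factor cut loose under stress. Bhlha15 was 9.36, 9.57, 10.01 and 10.32 on pregnant luminal arrays, against 8.20, 7.59 and 6.65 on virgin luminal arrays. Creb3l1 was 8.15, 7.83, 7.68 and 8.06 on pregnant luminal arrays, against 5.65, 5.70 and 5.75 on virgin luminal arrays. Neither overlapped, and the rises were 2.33 (SE 0.36, limma adjusted p = 2.49e-04), 5.04-fold, and 2.23 (SE 0.19, limma adjusted p = 9.46e-07), 4.68-fold. These exceeded the difference of every one of the 43 members in the same comparison.

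Sec16b, which organises the sites where COPII vesicles bud, was 9.97, 9.76, 9.68 and 9.56 on pregnant luminal arrays, against 6.87, 6.23 and 5.13 on virgin luminal arrays, where it was detected on 2 of 3. It rose by 3.67 (SE 0.35, limma adjusted p = 3.34e-06), 12.7-fold. It was 7.07, 7.76, 7.02 and 7.29 on the pregnant MaSC-enriched arrays, against 5.48, 6.45 and 5.54 on the virgin MaSC-enriched arrays, a rise of 1.46 (SE 0.35, limma adjusted p = 0.0277), the one gene of the 109 called there (0 fell), and the call was lost on leaving out any of 4 arrays, virgin replicates 1 and 3 or pregnant replicates 2 and 4 of that population (adjusted p up to 0.092). Over all genes 2.83% were called higher there and 2.31% lower. Fkbp11, a prolyl isomerase of secretory cells, was 13.36, 13.54, 13.74 and 13.60 on pregnant luminal arrays, against 11.96, 10.81 and 11.24 on virgin luminal arrays, up by 2.22 (SE 0.25, limma adjusted p = 1.53e-05), 4.66-fold. Srp19, a subunit of the signal recognition particle, was 9.74, 9.59, 9.80 and 10.68 on pregnant luminal arrays, against 8.51, 8.44 and 8.85 on virgin luminal arrays (difference 1.35, SE 0.32, limma adjusted p = 0.00652). Tmed3, a cargo receptor of the p24 family, went the other way, at 10.95, 11, 9.84 and 10.19 on pregnant luminal arrays, against 14.04, 12.68 and 12.13 on virgin luminal arrays, 5.47-fold lower at -2.45 (SE 0.39, limma adjusted p = 3.38e-04). None of these 4 luminal comparisons overlapped.

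**Figure D5:**
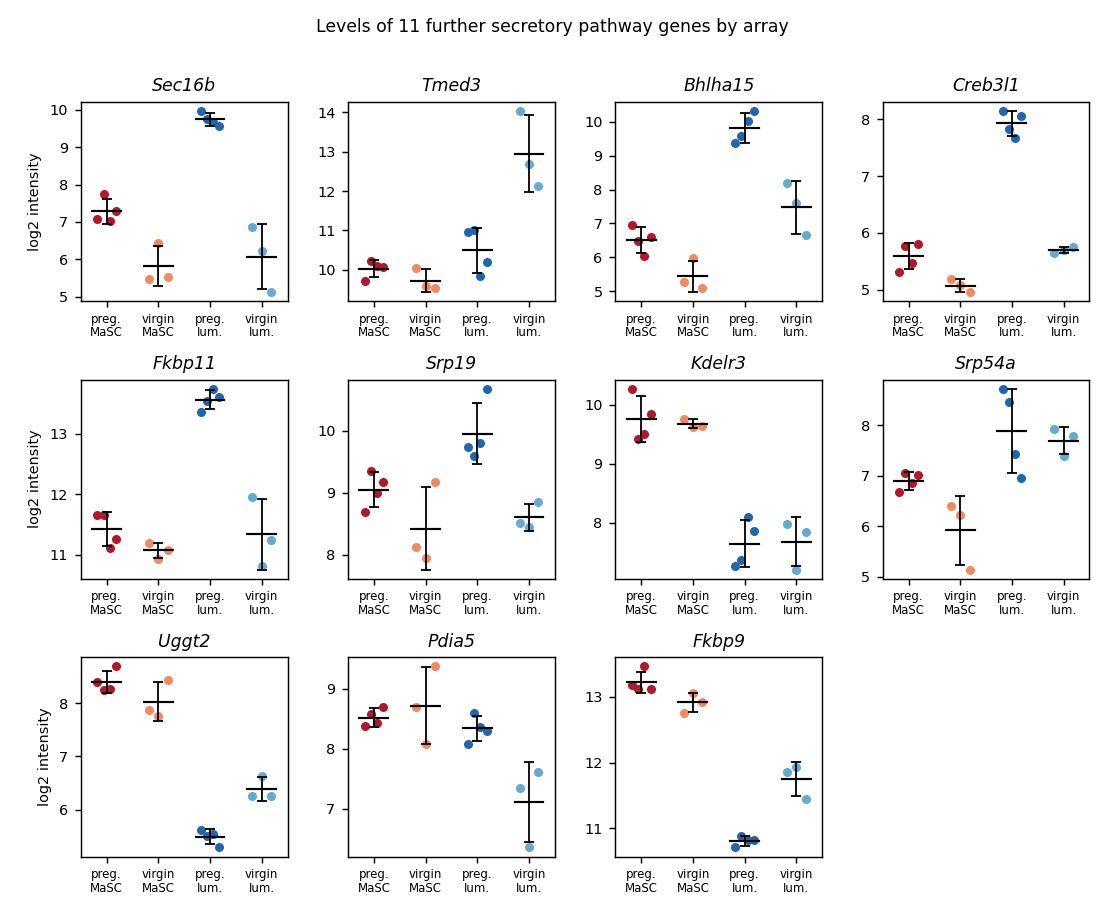
Log2 intensity of 11 further secretory pathway genes on each array, in the order pregnant MaSC-enriched, virgin MaSC-enriched, pregnant luminal and virgin luminal; bars are the mean and SD of 4 or 3 arrays, and vertical axes differ between genes and do not start at 0. Sec16b, Bhlha15, Creb3l1 and Fkbp11 stand highest on the pregnant luminal arrays, Tmed3 on the virgin luminal arrays, and Fkbp9, Uggt2 and Kdelr3 on MaSC-enriched arrays.

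Between populations, 12 of the 109 were higher and 35 lower in MaSC-enriched than in luminal cells of pregnant mice, and 9 higher and 19 lower in virgin mice. Over all genes 20.2% were higher and 23% lower in pregnant, and 15.5% and 16.6% in virgin mice. Leaving out some array ended 15 of the 47 calls in pregnant and 11 of the 28 in virgin mice. In pregnant mice Bhlha15 was 6.95, 6.49, 6.03 and 6.59 in MaSC-enriched cells, 9.84-fold below the luminal values given above (difference -3.30, SE 0.33, limma adjusted p = 1.19e-06). Creb3l1, Sec16b and Fkbp11 were lower there too, Creb3l1 being detected on 2 of 4 MaSC-enriched arrays, with log2 differences of -2.34, -2.46 and -2.14 (limma adjusted p = 5.55e-08, 2.23e-05 and 2.79e-06). Higher in MaSC-enriched cells were Fkbp9, a prolyl isomerase, at 13.18, 13.12, 13.46 and 13.11, against 10.71, 10.89, 10.83 and 10.83 in luminal cells (difference 2.40, SE 0.17, limma adjusted p = 3.03e-08), and Uggt2, of the family that senses folding of glycoproteins, at 8.39, 8.25, 8.26 and 8.69. Uggt2 was not well above background on any pregnant luminal array, which makes it at least 5.98-fold higher in MaSC-enriched cells (limma adjusted p = 1.79e-08).

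In virgin mice the largest of these were Tmed3, 9.34-fold lower in MaSC-enriched cells at 10.05, 9.59 and 9.52 (difference -3.22, SE 0.41, limma adjusted p = 2.27e-05), and Bhlha15 at 5.26, 5.97 and 5.10, detected on 1 of 3 arrays (difference -2.04, SE 0.38, limma adjusted p = 7.55e-04). Srp54a, the subunit of the signal recognition particle that binds signal sequences, was 6.40, 6.22 and 5.14 in MaSC-enriched cells (detected on 2 of 3), against 7.92, 7.39 and 7.78 in luminal cells (difference -1.78, SE 0.42, limma adjusted p = 0.00441). Kdelr3, a retrieval receptor, was higher, at 9.76, 9.63 and 9.64, against 7.99, 7.21 and 7.85 in luminal cells (difference 1.99, SE 0.29, limma adjusted p = 7.42e-05). Uggt2 and the disulphide isomerase Pdia5 were higher by 1.65 and 1.61 (limma adjusted p = 3.99e-05 and 0.00179). Over all genes, the pregnancy difference itself was called higher in MaSC-enriched cells for 5.37% and lower for 3.39%. Near that share, it differed between populations for 7 of the 109, 3 higher and 4 lower in MaSC-enriched cells. The largest were Tmed3 at 2.75 (SE 0.55, limma adjusted p = 0.00582), Sec16b at -2.20 (SE 0.50, limma adjusted p = 0.013), Fkbp11 at -1.87 (SE 0.35, limma adjusted p = 0.00397) and Creb3l1 at -1.71 (SE 0.26, limma adjusted p = 9.31e-04), ahead of Uggt2 at 1.26 and Fkbp9 at 1.24 (limma adjusted p = 0.0162 and 0.00745). Creb3l1 was detected on no virgin MaSC-enriched array and Uggt2 on no pregnant luminal array, so their interaction values rest on dim signal. With the chip as a block Sec16b (-1.73, adjusted p = 0.0529) and Uggt2 (adjusted p = 0.0753) no longer passed.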

How the data were processed

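The authors' deposited table of non-normalized values gave, for each of 14 arrays, a probe intensity in arbitrary units with no background correction and no scaling. It also gave a deposited detection p-value per probe and array. The deposited series matrix held log2 values, used as an alternative. Judged from the values, they were background corrected and quantile normalized: an offset of 50 and quantile normalization came within a median of 0.00477 and at most 0.0719 of them. BeadStudio and limma are named in the submitters' processing notes, without versions, and labelling used at most 250 ng of RNA, per the labels' protocols.

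Intensities were corrected here with normexp in limma 3.58.1 (R 4.3.3; background inferred from detection p, offset 16), taken to log2 and quantile normalized. Probes with a detection p below 0.05 on at least 3 arrays were tested (20906, 46.17%). A total of 10378 probes had no symbol, 18 had several, and 10 symbols were updated through RefSeq. A gene was its brightest tested probe. A single limma fit of 4 group means covered all 14 arrays (10 residual and 4.74 prior degrees of freedom), with two-sided p-values adjusted by Benjamini-Hochberg over all tested probes and a threshold of 0.05. Differences are pregnant minus virgin and MaSC-enriched minus luminal. SE is the moderated standard error.

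Members and lists were chosen with earlier results of these data known. Named were Xbp1, Ern1 and Hspa5, every member past the threshold, the 3 largest differences of each class in each comparison, and up to 6 further pathway genes a comparison. A fold against a group with no detected array takes, on each of its arrays, the higher of the lowest detected signal and the probe's own. Of the 4 chips, chip 2 had virgin MaSC-enriched replicate 2 alone, which therefore adds nothing to fits with the chip as a block. The number of arrays limits precision. The fit was tested on simulated data. Alternatives covered background, normalization, filters, probes, weights, chip, replicate number, arrays fitted and each array left out.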

Additional observations from a re-analysis of the deposited data

Results flagged for a closer look

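In 3 of 86 groups of 4 arrays examined, an array stood far from the others of its group, where chance gives about 1 in 20. Sel1l was 9.61 on pregnant luminal replicate 2, against 9.34 to 9.37 on the other arrays of the group. Edem2 was 11.44 on pregnant MaSC-enriched replicate 2, against 11.22 to 11.25. Ssr4 was 12.85 on pregnant MaSC-enriched replicate 3, against 13.19 to 13.22. For Sel1l the pregnancy difference differed between the populations, MaSC-enriched minus luminal, by 1.16 (SE 0.28, limma adjusted p = 0.0186).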

How the results depend on the processing

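Counts of the 43 genes past the threshold changed by over 1.5 times under few alternatives. With array weights, where virgin luminal replicate 1 had a weight of 5.89, pregnant against virgin luminal gave 16 in place of 5, and the interaction gave 2 in place of 1. The interaction gave 0 with median scaling and 0 with the chip as a block. In MaSC-enriched cells, 1 gene in place of 0 passed without background correction, with the chip as a block and with the replicate block. A fit of the virgin arrays alone gave 4 in place of 8. Leaving out each array in turn gave 4 to 8 for pregnancy in luminal cells (8 without virgin MaSC-enriched replicate 2), 0 to 2 in MaSC-enriched cells (2 without virgin MaSC-enriched replicate 1), 5 to 11 between populations in virgin mice (5 without virgin luminal replicate 1), 10 to 17 in pregnant mice and 0 to 1 for the interaction (0 without virgin luminal replicate 2).

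In some alternative the sign turned for 14 of 43 members for pregnancy in luminal cells (none with a log2 difference over 0.17), 24 in MaSC-enriched cells (none over 0.30), 13 between populations in pregnant mice, 11 in virgin mice (none over 0.26) and 18 for the interaction (none over 0.39). Copg1 in pregnant mice was the one called gene among them. Values follow for Copg1, Hspa5 and Xbp1. For Hspa5, pregnant minus virgin luminal was 0.00 with cyclic loess and -0.05 to 0.19 with an array left out, and in MaSC-enriched cells -0.15 with the chip as a block. Between populations Hspa5 was 0.10 in virgin mice with the chip as a block, and in pregnant mice 0.18 with cyclic loess, 0.07 with array weights and -0.12 to 0.16 with an array left out. The Hspa5 interaction was -0.27 with the chip as a block. The Xbp1 interaction was 0.18 with array weights and -0.40 to 0.03 with an array left out. Copg1 was -0.13 in pregnant mice with the mean of its probes. The causes were not tested. Of the called genes, those whose differences kept their sign within every chip that held both groups were 5 of 5, 8 of 8 and 14 of 14 for the luminal pregnancy, virgin and pregnant comparisons.

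No source says that a replicate number marks the same pool in both populations. With 4 pregnant and 3 virgin pools for 14 arrays, the populations may share pools, which the main fit did not model. Deviations of same-numbered arrays correlated at -0.17 to 0.09 in pregnant mice, where none matched its own number best. In virgin mice they correlated at 0.05 to 0.42, and each array matched its own number best. Virgin replicates 1 of both populations lay on chip 1 and replicates 3 on chip 4. For these, number and chip cannot be told apart. Whether virgin arrays are paired by number is thus not settled. With the replicate block, 8 genes in virgin and 14 in pregnant mice passed, of which 7 and 13 also passed without it: Sec62 replaced Sar1a, and Sec61a1 replaced Copg1. For pregnancy the block was the replicate number alone. It joins pregnant and virgin arrays, which come from different animals, so it does not model shared pools. With it, 4 of the 5 luminal genes passed (not Ssr2), and Sec23a in MaSC-enriched cells, and neither change bears on pairing. Dim signal limits Edem1, Sec62, Sec23a, Copb1 and Arf4.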
